A study of Macaca mulatta with 20 samples.

Results

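The genes described here encode collagens, laminins, thrombospondins, fibulins, fibrillins and a few other proteins of the extracellular matrix and cell surface, measured in corpora lutea from rhesus macaques given a hormone course that mimics early pregnancy. Members were the array probe sets with a single gene symbol in the platform annotation that named a collagen chain, a laminin chain, a thrombospondin, a fibulin or a fibrillin, or that was FN1, VCAN, LUM, DCN, SPARC, TNC or THY1. The rule found 117 probe sets of 59 genes, out of 24956 probe sets of 14132 genes with 1 symbol, and each gene is described by its probe set with the highest mean of log2(signal + 16) over the arrays. A further 15 genes of these families had no probe set with a single symbol and were not analysed here, among them COL4A1, COL4A2, COL5A1, LAMA5 and SPARC.

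Messenger RNA was measured on Affymetrix rhesus arrays in 20 corpora lutea of female macaques, 4 in each of 5 groups. One group was untreated and collected on luteal day 10. In the other groups human chorionic gonadotropin (hCG), the placental hormone that acts on the LH receptor of luteal cells, was injected into muscle 2 times a day from luteal day 9, with a dose that went up in 9 steps between 15 and 2880 IU. These corpora lutea were collected on luteal days 10, 12, 15 and 18, after 1 day, 3 days, 6 days and 9 days of the hormone. The single untreated group is of day 10, so from day 12 on the luteal day, the duration of hCG and its dose differ together and their parts cannot be told apart. The labels state neither ages nor whether each corpus luteum is from an animal of its own, so a p-value here is set against the spread among the arrays of a group and nothing wider.

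The extracellular matrix is the network of secreted proteins that holds a tissue together and binds growth factors. Fibrillar collagens form cables that resist pulling, laminins and network collagens form the basement membranes under endothelium and epithelium, and fibronectin and the thrombospondins link the matrix to receptors on cells. The corpus luteum forms by rapid remodelling of the follicle wall: the basement membrane of the follicle is broken down at ovulation, vessels and stromal cells grow in, and matrix is laid down around the new capillaries and along connective tissue septa.

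Values are linear signals in the intensity units of the scanner software, on arrays that the authors had scaled to a common trimmed mean near 200. Fold changes and log2 changes are differences of mean log2(signal + 16), which understates changes of dim probe sets, and signals of different genes are not compared because each probe set has its own brightness. Of the 59 genes, 46 lay above the median of all probe sets by mean log2 value, 14 were under 16 units on at least 1 array, and 0 were under 16 on every array. The arrays' own median log2 value differed from that of untreated arrays by -0.12, -0.14, -0.11 and -0.05 on hCG days 10, 12, 15 and 18. The array labelled replicate 1 of hCG day 12, with replicate 2 of untreated and replicate 2 of hCG day 15, stood apart on the third principal component of all probe sets, and calls of matrix genes that ended without these 3 arrays are given with both values. The steroid cell genes STAR, HSD3B2 and CYP19A1 were at 1742 units or more on every array, with summed signals of 23090 to 40960 over the 4 hCG groups and 27690 to 30800 in untreated arrays. In whole tissue, fewer cells of a type and less RNA per cell cannot be told apart.

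The 5 groups differed for 13 of the 59 matrix genes, 10 of which had their lowest mean log2 value on hCG day 18. A limma moderated F test over the groups called these 13 at an adjusted p under 0.05, which is 22.0%, against 4.52% of all 52707 probe sets tested. It called 9.35% of the 9728 genes whose probe set lay above the median of all probe sets by mean log2 value. These are the brighter genes below, and 46 of the 59 matrix genes are among them, while the 22.0% is over all 59. By gene, the 13 were the collagens COL1A1, COL5A2, COL6A3, COL9A2 and COL21A1, the laminin chains LAMA3 and LAMB1, the thrombospondin THBS4, the elastic fibre and microfibril genes FBLN5 and FBN2, and FN1, VCAN and THY1. The call held in all 20 fits that left out 1 array for COL1A1, COL9A2, FBN2, LAMB1, THBS4 and THY1. For COL5A2, COL21A1, FN1 and VCAN it ended in 4 or 5 of those fits. These fits were the ones without untreated replicate 1 or 2 or hCG day 18 replicate 3 or 4 for COL5A2, with an adjusted p of up to 0.0652, and without hCG day 12 replicate 3 or hCG day 18 replicate 2, 3 or 4 for COL21A1, with up to 0.0814. For FN1 they were the fits without hCG day 12 replicate 1 or 2 or hCG day 18 replicate 1, 3 or 4, with up to 0.0838, and for VCAN those without untreated replicate 3, hCG day 10 replicate 1 or 2 or hCG day 18 replicate 2 or 3, with up to 0.0941. Without the 3 arrays that stood apart, 7 genes were called. The adjusted p was then 0.083 for COL1A1, 0.0723 for COL5A2, 0.209 for COL6A3, 0.0943 for FBLN5, 0.0943 for LAMA3 and 0.0672 for VCAN.

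**Figure D1:**
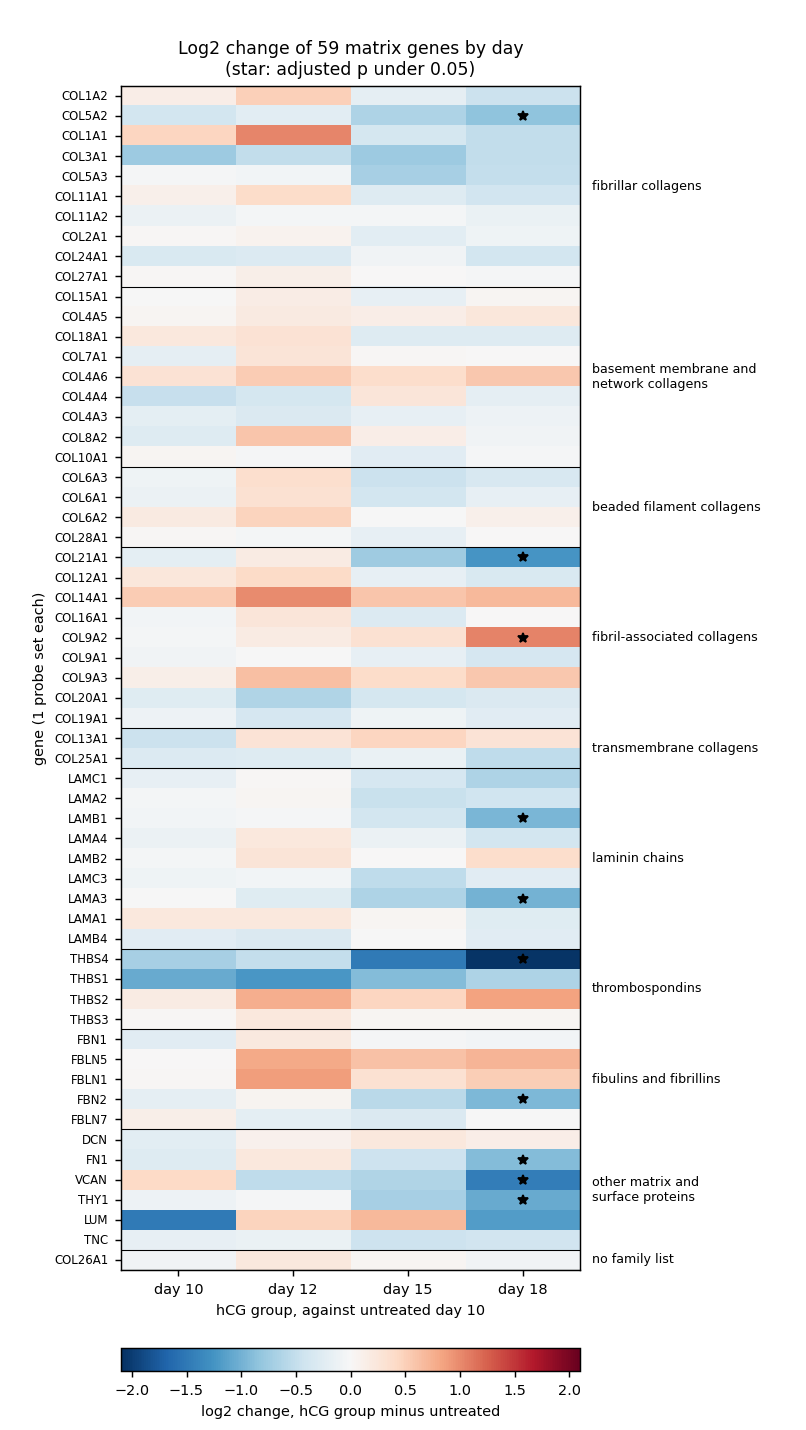
Log2 change of each of the 59 genes (rows, grouped by family) in the 4 hCG groups against untreated day 10 (columns), where red is higher and blue lower in the hCG group and a star marks an adjusted p under 0.05. Stars appear in the day 18 column only, 9 on blue cells and 1 on a red cell, the deepest blue being THBS4 at -2.06.

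After 9 days of hCG, 9 matrix genes were lower and 1 was higher than in untreated corpora lutea of day 10. The genes that fell were FN1, VCAN, THY1, COL5A2, COL21A1, LAMB1, LAMA3, THBS4 and FBN2, and the gene that rose was COL9A2. The limma test called 2.02% of all 52707 probe sets lower and 1.87% higher in this comparison, and 4.37% of the 9728 brighter genes lower. The median log2 change of the 59 genes was -0.24, and that of all probe sets was -0.03. All 4 day 18 arrays lay below all 4 untreated arrays for 10 of the 59 genes and above them for 5, against 6.37% and 4.79% of all probe sets. Against hCG day 12, 8 genes were lower on day 18 and 1 was higher, where 0.782% of all probe sets were called lower, 0.647% higher, and 2.21% of the brighter genes lower. Without the 3 arrays that stood apart, 8 genes were called on day 18 against untreated and 6 against day 12. In the comparison with day 12, the day 18 arrays lay below all day 12 arrays for 15 genes, against 3.56% of all probe sets. Both comparisons use the day 18 arrays. FN1, THY1, LAMB1, THBS4, COL21A1 and FBN2 passed in both as lower, COL9A2 passed in both as higher, and COL1A1 and COL1A2 passed only against day 12, a difference between the comparisons that was not tested.

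Markers of fibroblasts, smooth muscle and endothelium did not pass on day 18 against untreated. Of 8 fibroblast and stroma markers limma called 0 (1 at an unadjusted p under 0.05), and their summed signals were 8194 to 9094 on day 18 and 8104 to 9110 in untreated arrays. The same held for 6 smooth muscle and pericyte markers (0 called, 1 at the unadjusted level), with sums of 6260 to 7322 on day 18 and 6125 to 7201 in untreated arrays. For 7 endothelial markers both counts were 0, and the sums were 7093 to 8692 on day 18 and 6895 to 8732 in untreated arrays. All 5 leukocyte markers were above 0, with sums of 2584 to 5083 on day 18 and 1481 to 3039 in untreated arrays, and CSF1R, a macrophage receptor, rose by 1.06 ± 0.23 on the log2 scale (adjusted p = 0.0121). Of the 3 steroid cell markers, 2 were above 0 and 1 below (median 0.23). The one below, HSD3B2, an enzyme of progesterone synthesis, fell by 1.83 ± 0.21 (adjusted p = 4.4e-05). The sums of the 3 markers were 26440 to 33430 on day 18 and 27690 to 30800 in untreated arrays. Of 6 surface epithelium markers limma called 0 (1 at the unadjusted level), with sums of 631 to 695 on day 18 and 449 to 746 in untreated arrays, and KRT7, EPCAM and CDH1 were under 16 units on all arrays.

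On day 18 against day 12, the comparison in which COL1A1 and COL1A2 passed, 5 of the 6 smooth muscle and pericyte markers were below 0 (median -0.46), with 0 called by limma and 3 lower at an unadjusted p under 0.05, and their sums were 6260 to 7322 on day 18 and 6326 to 9268 on day 12. All 5 leukocyte markers were above 0, and CSF1R rose by 1.25 ± 0.23 (adjusted p = 0.0102). HSD3B2 fell by 1.47 ± 0.21 (adjusted p = 0.00165), while the other 2 steroid cell markers were above 0. For fibroblast and stroma markers limma called 0, with 2 higher and 1 lower at the unadjusted level, and for endothelial markers both counts were 0. The part of leukocyte, steroid cell, smooth muscle, fibroblast and endothelial RNA in the day 18 changes was not tested.

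THY1 had the smallest adjusted p of the 59 genes in both day 18 comparisons. It encodes CD90, an anchored surface glycoprotein of fibroblasts and some vascular cells, and is no matrix component itself. Its signals were 993, 859, 830 and 927 in hCG day 18 arrays, against 2074, 2133, 1874 and 1555 in untreated arrays. The other groups had 1903, 1749, 2125 and 1359 on hCG day 10, 2159, 1456, 1747 and 2201 on day 12, and 976, 959, 1495 and 1278 on day 15. Every day 18 array was below every untreated, day 10 and day 12 array, and the day 15 arrays overlapped those of day 18. THY1 fell on day 18 by 1.06 ± 0.17 (SE) on the log2 scale against untreated (adjusted p = 0.00125) and by 1.04 ± 0.17 against day 12 (adjusted p = 0.00512). Both calls held in all 20 fits without 1 array.

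FN1 encodes fibronectin, the adhesive glycoprotein that binds integrins, collagens and heparan sulphate. It had 2285, 2679, 2126 and 2623 units in hCG day 18 arrays, against 4399, 5907, 5328 and 3095 in untreated arrays. On the days between, the signals were 2995, 4609, 3442 and 4210 on hCG day 10, 6440, 6000, 4671 and 4385 on day 12, and 3096, 2251, 4215 and 4381 on day 15. The 4 day 18 arrays were below all untreated and all day 12 arrays, and those of day 12 were the highest by mean, 5374 ± 1000 (SD, n = 4). FN1 fell on day 18 by 0.91 ± 0.22 against untreated (adjusted p = 0.0249) and by 1.13 ± 0.22 against day 12 (adjusted p = 0.0141). The first call ended without untreated replicate 1, 2 or 3 or hCG day 18 replicate 1 or 3, with an adjusted p of up to 0.0906, and the other ended at 0.0504 without hCG day 18 replicate 3.

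VCAN encodes versican, a large chondroitin sulphate proteoglycan that binds hyaluronan and is known in the ovary from the expanding cumulus matrix. The day 18 signals of 1195, 606, 667 and 1506 stood against 3914, 3152, 3054 and 1145 in untreated arrays. They were 4516, 4987, 2317 and 2608 on hCG day 10, 2497, 2272, 1334 and 1278 on day 12, and 1655, 1463, 1438 and 2137 on day 15. Its highest mean was on hCG day 10 and its lowest on day 18, and untreated replicate 4 lay within the day 18 range. VCAN fell on day 18 by 1.46 ± 0.37 on the log2 scale against untreated (adjusted p = 0.031). This call ended without untreated replicate 1, 2 or 3 or hCG day 18 replicate 2 or 3 (adjusted p up to 0.107) and, at 0.102, without the 3 arrays that stood apart.

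Decorin and lumican, small proteoglycans that bind collagen fibrils, and tenascin-C, a glycoprotein of remodelling tissue, passed in no comparison. DCN averaged 8139 ± 2246 units in hCG day 18 arrays and 7348 ± 1928 in untreated arrays (SD, n = 4 each), a log2 change of 0.14 ± 0.21. TNC was dim, with 37.8 ± 14.4 units on day 18 and 54.6 ± 17.0 in untreated arrays. LUM spanned 7.53 to 152 units on 17 arrays and 558 to 1657 on the 3 arrays that stood apart, and it was the 1 matrix gene whose signals on those 3 arrays did not overlap the rest, as was true of 1.10% of all probe sets. Its log2 change on day 18 against untreated was -1.18 ± 0.99, with an adjusted p of 0.663.

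**Figure D2:**
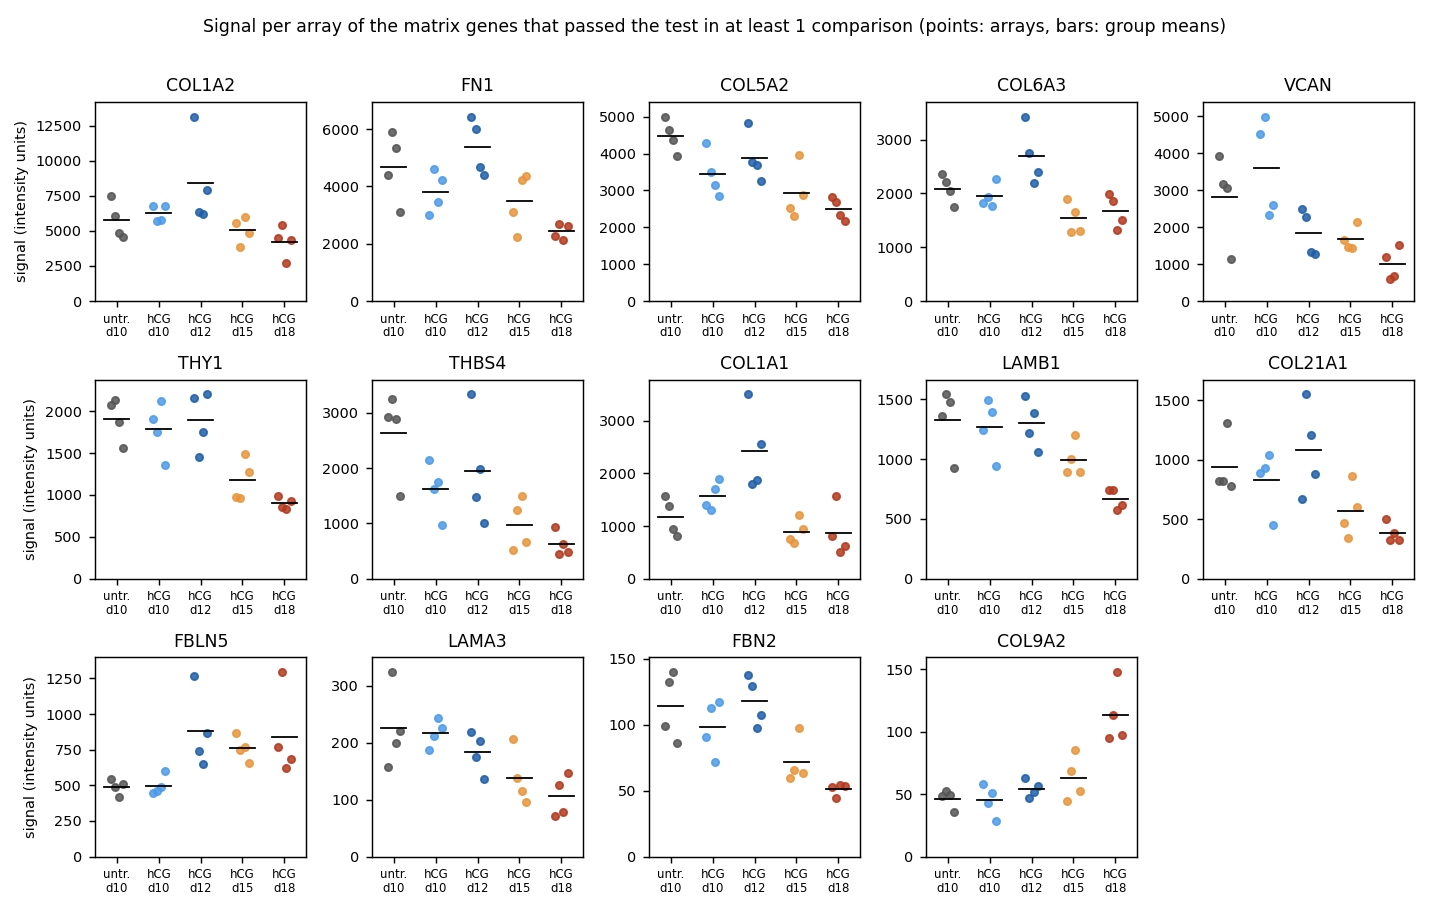
Signal in intensity units on each array (points, 4 per group; bars, group means) for the 14 genes that passed the limma test in at least 1 comparison, with the groups in the order untreated day 10 and hCG days 10, 12, 15 and 18 on the horizontal axis. All vertical axes start at 0; COL9A2 has its highest points on day 18, while THY1, LAMB1 and FBN2 have their lowest there.

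Among the 10 fibrillar collagens measured, 1 passed as lower on day 18 against untreated and 2 against day 12, and all 10 log2 changes were below 0 in both comparisons (medians -0.43 and -0.30). After median-centring or quantile normalization, 9 of the 10 were below 0 against untreated and again 10 against day 12. Without these, the changes nearest 0 were -0.03 and -0.0049. All of this is by the probe set used for each gene. The other, dim probe sets of COL1A1 (0.05 and 0.03) and COL2A1 (0.48 and 0.06) were above 0 in both comparisons. That of COL11A1 was at -0.10 against untreated and 0.12 against day 12. The other probe sets of COL1A2, COL5A2 and COL11A2, of which those of COL1A2 and COL5A2 were not dim, were below 0 in both. COL5A2 encodes a chain of type V collagen, which starts and limits the growth of type I fibrils. It had 2814, 2679, 2323 and 2161 units in hCG day 18 arrays, against 5001, 4649, 4360 and 3942 in untreated arrays. The day 10 signals were 4292, 3500, 3134 and 2857, those of day 12 were 4839, 3771, 3685 and 3266, and those of day 15 were 2520, 2317, 3971 and 2865. No day 18 array reached the lowest untreated array. COL5A2 fell on day 18 by 0.85 ± 0.17 on the log2 scale against untreated (adjusted p = 0.00664), a call kept in all 20 fits without 1 array. Against day 12 its change was -0.63 ± 0.17, with an adjusted p of 0.0774. Of the 3 other COL5A2 probe sets, limma called 1 there, at -0.83 ± 0.20 (adjusted p = 0.0467). The same probe set passed on day 15 against untreated, at -0.86 ± 0.20 (adjusted p = 0.0398), and the rest passed in neither.

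COL1A1 and COL1A2 encode the chains of type I collagen, the main cable-forming collagen of connective tissue. COL1A1 signals were 802, 1564, 502 and 623 in hCG day 18 arrays, against 3498, 1794, 1871 and 2556 in hCG day 12 arrays. They were 1574, 1374, 944 and 815 in untreated arrays, 1403, 1311, 1700 and 1883 on hCG day 10, and 750, 679, 1209 and 948 on day 15. The day 12 arrays were above every untreated, day 15 and day 18 array. COL1A1 fell on day 18 against day 12 by 1.54 ± 0.30 (adjusted p = 0.014). The adjusted p was 0.0543 without hCG day 18 replicate 3 and 0.0505 without the 3 arrays that stood apart. Against untreated, its day 18 change was -0.51 ± 0.30 with an adjusted p of 0.468.

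COL1A2 signals were 4484, 5401, 2698 and 4329 in hCG day 18 arrays, against 13150, 6372, 6212 and 7902 in hCG day 12 arrays. In untreated arrays they were 7453, 6055, 4878 and 4589, on hCG day 10 they were 6794, 5683, 5781 and 6777, and on day 15 they were 5533, 3819, 5955 and 4824. The groups of days 12 and 18 did not overlap, and hCG day 12 replicate 1 was the highest of the 20 arrays. COL1A2 fell on day 18 against day 12 by 0.96 ± 0.24 (adjusted p = 0.0498). This call held only without untreated replicate 1, hCG day 15 replicate 2 or hCG day 18 replicate 2. It ended in the other 17 fits without 1 array, with an adjusted p of up to 0.158, and at 0.116 without the 3 arrays that stood apart. The other COL1A2 probe set had a mean signal of 5550 units, against 5935 for the one used. Its change on day 18 against day 12 was -0.77 ± 0.20, and limma did not call it (adjusted p = 0.058). COL3A1, the type III collagen gene of pliable tissue, ranged between 85.3 and 630 units and had a day 18 change of -0.52 ± 0.49 against untreated.

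The fibril-associated collagens, which sit on the surface of other fibrils, held members that moved in opposite directions: of 9 measured, 1 fell and 1 rose on day 18 against untreated. COL21A1, a chain of this class found in vessel walls, had 504, 322, 382 and 324 units in hCG day 18 arrays, against 825, 826, 1311 and 780 in untreated arrays. It had 893, 932, 1042 and 451 on hCG day 10, 673, 1550, 1211 and 882 on day 12, and 470, 343, 861 and 601 on day 15. All day 18 arrays lay below all untreated and day 12 arrays. COL21A1 fell by 1.24 ± 0.30 against untreated (adjusted p = 0.0231) and by 1.41 ± 0.30 against day 12 (adjusted p = 0.0228). The first call ended without untreated replicate 3 or hCG day 18 replicate 2, 3 or 4 (adjusted p up to 0.0887), and the other without hCG day 12 replicate 2 or 3 or hCG day 18 replicate 2, 3 or 4 (up to 0.0728).

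COL9A2 encodes a chain of type IX collagen, best known from cartilage. Its signals were 94.8, 114, 148 and 97.3 in hCG day 18 arrays, against 48.7, 52.5, 49.3 and 35.5 in untreated arrays. They were 58.3, 43.0, 50.8 and 28.8 on hCG day 10, 62.8, 47.1, 51.3 and 56.5 on day 12, and 44.6, 68.2, 85.8 and 52.4 on day 15. Every day 18 array was above every other array, although the probe set was dim throughout. COL9A2 rose by 1.04 ± 0.18 against untreated (adjusted p = 0.00202), in all 20 fits without 1 array, and by 0.86 ± 0.18 against day 12 (adjusted p = 0.0197). The day 12 call ended without hCG day 12 replicate 2 or 3 or hCG day 18 replicate 3, with an adjusted p of up to 0.0735, and it was 0.0519 after quantile normalization and 0.0536 after median-centring. The other type IX chain named here, COL9A3, was also dim and averaged 37.6 ± 18.7 units on day 18 and 18.9 ± 2.05 in untreated arrays, and its change of 0.56 ± 0.24 had an adjusted p of 0.254. COL14A1, a fibril-associated collagen of dense connective tissue, changed by 0.67 ± 0.24 on day 18 against untreated, with an adjusted p of 0.141.

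In the basement membrane families 2 laminin chains fell on day 18 and the network collagens had no call. Of 9 laminin chains, LAMB1 and LAMA3 passed as lower on day 18 against untreated, and 8 of the 9 changes were below 0 (median -0.39). LAMB1, a beta chain shared by many laminin trimers, had 742, 739, 577 and 613 units in hCG day 18 arrays, against 1363, 1541, 1474 and 927 in untreated arrays. On the other days it had 1247, 1495, 1396 and 939 on hCG day 10, 1525, 1221, 1389 and 1057 on day 12, and 889, 997, 1205 and 890 on day 15. The day 18 arrays were lower than all 16 others. LAMB1 fell by 0.96 ± 0.18 against untreated (adjusted p = 0.00375) and by 0.94 ± 0.18 against day 12 (adjusted p = 0.0118), and both calls held in all 20 fits without 1 array.

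LAMA3, an alpha chain of epithelial basement membranes, had 70.6, 126, 78.6 and 147 units in hCG day 18 arrays, against 158, 324, 199 and 220 in untreated arrays. The values were 188, 212, 242 and 226 on hCG day 10, 218, 175, 204 and 136 on day 12, and 206, 139, 114 and 95.9 on day 15. Day 18 and untreated arrays did not overlap. LAMA3 fell on day 18 by 1.00 ± 0.24 (adjusted p = 0.0221). The call ended without untreated replicate 2 or 4 or hCG day 18 replicate 1 or 3 (adjusted p up to 0.0849), and at 0.0986 without the 3 arrays that stood apart. Its call in the F test (adjusted p = 0.0434) held only in the fits without untreated replicate 1, hCG day 12 replicate 4, hCG day 15 replicate 1 or hCG day 18 replicate 4, and the adjusted p reached 0.127 in the other 16. LAMC1, the gamma chain of most laminin trimers, averaged 1725 ± 206 units on day 18 and 2715 ± 436 in untreated arrays, a change of -0.64 ± 0.20 with an adjusted p of 0.0925. LAMB2, a beta chain of vascular and muscle basement membranes, lay above 0 with a change of 0.37 ± 0.17 (adjusted p = 0.268). Among the 9 basement membrane and network collagens, 0 were called by limma in any of the 9 pairwise or peak comparisons, 0 to 2 reached an unadjusted p under 0.05, and COL15A1, a collagen of vascular basement membrane zones, changed by 0.04 ± 0.21 on day 18 against untreated.

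THBS4 had the lowest log2 change among the 59 genes on day 18 against untreated. It encodes thrombospondin-4, a secreted glycoprotein of muscle, tendon and vessel walls. Its signals were 940, 444, 628 and 478 in hCG day 18 arrays, against 2935, 3258, 2885 and 1491 in untreated arrays. On hCG day 10 they were 2144, 1628, 1746 and 968, on day 12 they were 3336, 1480, 1987 and 1012, and on day 15 they were 518, 1237, 1493 and 667. The day 18 arrays were below every untreated, day 10 and day 12 array. THBS4 fell by 2.06 ± 0.38 on the log2 scale against untreated, which is 4.17-fold lower (adjusted p = 0.00358), and this call held in all 20 fits without 1 array. Against day 12 it fell by 1.55 ± 0.38 (adjusted p = 0.0484), a call kept only without untreated replicate 4, hCG day 10 replicate 4, hCG day 12 replicate 4 or hCG day 15 replicate 1 or 3. The adjusted p reached 0.124 in the other 15 fits, and it was 0.131 without the 3 arrays that stood apart. THBS1, the thrombospondin known for inhibiting vessel growth, passed in no comparison, and its signals covered 428 to 790 units on day 18 and 559 to 1154 in untreated arrays, and hCG day 12 replicate 3 was at 32.3. THBS2, its close relative, changed by 0.84 ± 0.34 on day 18 against untreated, with an adjusted p of 0.219.

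FBN2 and FBN1 encode fibrillins, the backbone of microfibrils, and FBLN5 encodes a fibulin that organises elastic fibres. FBN2 had 52.8, 44.5, 54.1 and 53.2 units in hCG day 18 arrays, against 99.5, 133, 140 and 85.9 in untreated arrays. It had 90.5, 113, 71.9 and 117 on hCG day 10, 138, 129, 97.9 and 108 on day 12, and 59.4, 65.9, 97.6 and 63.4 on day 15. The day 18 arrays were below all others. FBN2 fell by 0.94 ± 0.17 against untreated (adjusted p = 0.00301) and by 0.99 ± 0.17 against day 12 (adjusted p = 0.00633), in all 20 fits without 1 array. FBN1 averaged 2011 ± 434 units on day 18 and 2078 ± 308 in untreated arrays, a change of -0.06 ± 0.20.

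FBLN5 was called only in the F test (adjusted p = 0.0374). Its signals were 544, 487, 418 and 509 in untreated arrays and 444, 458, 485 and 598 on hCG day 10. They were 1270, 743, 650 and 868 on day 12, 864, 747, 772 and 655 on day 15, and 767, 1294, 619 and 682 on day 18. The arrays of days 12, 15 and 18 each lay above all untreated arrays. The log2 changes against untreated were 0.79 ± 0.21 on day 12, 0.62 ± 0.21 on day 15 and 0.71 ± 0.21 on day 18, with adjusted p-values of 0.138, 0.201 and 0.0689. The F call held only in the fits without hCG day 10 replicate 4, hCG day 12 replicate 1, 2 or 3, hCG day 15 replicate 4 or hCG day 18 replicate 2, 3 or 4. It ended in the other 12, with an adjusted p of up to 0.082, and at 0.0943 without the 3 arrays that stood apart.

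**Figure D3:**
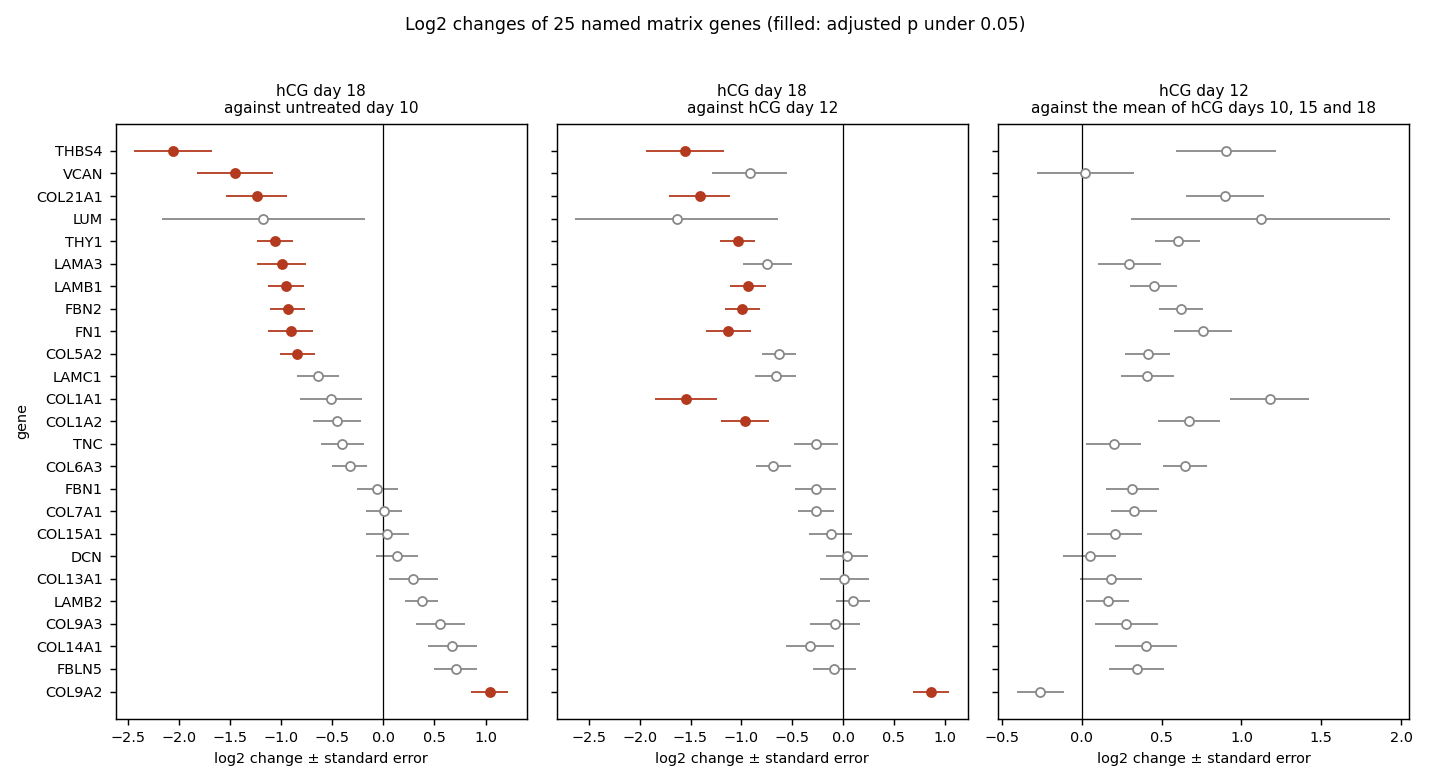
Log2 change with its standard error (horizontal axes) of 25 named matrix genes in 3 comparisons (panels), with filled points for an adjusted p under 0.05. THBS4, COL21A1, THY1, LAMB1, FBN2 and FN1 are filled left of 0 in both day 18 panels, COL9A2 is filled right of 0 in both, and the right panel has no filled point.

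hCG day 12 was the peak in mean signal for many matrix genes. The group mean of log2(signal + 16) was highest on hCG day 12 for 27 of the 59 genes, or 45.8%, against 13.3% of all probe sets and 16% of the 9728 brighter genes. Among the 4 hCG groups alone, day 12 was highest for 35 of the 59, or 59.3%, against 19.8% of all probe sets. Day 18 had the lowest mean of the 5 groups for 21 genes, or 35.6%, against 21.2% of all probe sets. The limma comparison of hCG day 12 with the mean of hCG days 10, 15 and 18 called 0 matrix genes and 0% of all 52707 probe sets, and the smallest adjusted p of a member was 0.164, for COL1A1 and COL6A3. At an unadjusted p under 0.05, 22 members were higher on day 12 and 0 lower, or 37.3%, while 3603 of all probe sets, or 6.84%, passed that level. Of the 59 changes, 50 were above 0, with a median of 0.28, where the median of all probe sets was -0.02, and after median-centring or quantile normalization 51 were above 0.

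Part of the day 12 peak rested on 1 array. hCG day 12 replicate 1 was the highest of its group for 35 of the 59 genes, or 59.3%, against 25.9% of the brighter genes. Without it, 23 genes, or 39.0%, had their highest mean on day 12, against 17.45% of all 14132 genes (15.67% with all arrays). In the peak comparison 44 changes were then above 0 with a median of 0.21, and 12 members were higher at an unadjusted p under 0.05. Without the 3 arrays that stood apart these numbers were 25 (42.4%, against 16.87% of all genes), 43, 0.20 and 10. The array of the day 18 group that was lowest most often was replicate 3, for 27 of the 59 genes, or 45.8%, against 20.6% of the brighter genes. On hCG day 12 all 6 smooth muscle and pericyte markers were also above 0 against untreated, with 0 called by limma and 3 at an unadjusted p under 0.05, and their sums were 6326 to 9268 on day 12 and 6125 to 7201 in untreated arrays. The part of that RNA in the day 12 values was not tested.

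COL6A3 shows the day 12 pattern. It encodes the longest chain of type VI collagen, which forms beaded filaments around cells. Its signals were 2362, 2207, 2036 and 1739 in untreated arrays, 1826, 1932, 1770 and 2258 on hCG day 10, and 3426, 2757, 2201 and 2388 on day 12. They were 1894, 1288, 1662 and 1305 on day 15 and 1996, 1853, 1315 and 1498 on day 18. All day 12 arrays were above all arrays of days 15 and 18 and overlapped those of untreated and day 10. The log2 change was 0.65 ± 0.14 on day 12 against the mean of the other hCG groups (adjusted p = 0.164) and -0.69 ± 0.17 on day 18 against day 12 (adjusted p = 0.0501). The F test called it at 0.0386. That call held only without untreated replicate 4, hCG day 10 replicate 4, hCG day 12 replicate 3, hCG day 15 replicate 1 or 3 or hCG day 18 replicate 1 or 2, reached 0.0947 in the other 13 fits, and was 0.209 without the 3 arrays that stood apart.

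Against untreated, hCG day 12 had no call. Limma called 0 members on hCG day 12 against untreated (0.288% of all probe sets), and 8 were higher and 0 lower at an unadjusted p under 0.05, or 13.6%, against 10.6% of all probe sets. The day 12 arrays lay above all untreated arrays for 5 genes, against 2.14% of all probe sets. The smallest adjusted p was that of COL14A1, 0.0898, with 660, 529, 989 and 578 units on day 12 against 376, 262, 387 and 297 in untreated arrays. The 2 groups did not overlap, and the change was 1.00 ± 0.24, while the 3 other COL14A1 probe sets changed by between -0.17 and 0.06. Against hCG day 10, limma again called 0 members on day 12 (0.518% of all probe sets), with 10 higher and 1 lower at the unadjusted level, or 18.6%, against 8.28% of all probe sets. In the same step all 6 smooth muscle and pericyte markers were above 0 (median 0.46), with 0 called and 3 at the unadjusted level. The lowest p-values were those of FBLN5, with a change of 0.78 ± 0.21 (adjusted p = 0.138), and COL13A1, a transmembrane collagen, with 0.73 ± 0.24 (adjusted p = 0.287). COL7A1, the anchoring fibril collagen, changed by 0.46 ± 0.18 in that step (adjusted p = 0.427).

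By the probe set used for each gene, the shortest treatment and the late steps gave no calls. On hCG day 10 against untreated, limma called 0 members (0.954% of all probe sets), and 1 was higher and 1 lower at an unadjusted p under 0.05, or 3.39%, against 12.4% of all probe sets. The median of the 59 changes was -0.07, and 0.04 after each array was centred on its own median, so no direction is given for it. On hCG day 15 against untreated, limma called 0 members (1.29% of all probe sets), with 2 higher and 11 lower at the unadjusted level, or 22.0%, against 11.9% of all probe sets. THY1 came nearest, with a change of -0.70 ± 0.17 and an adjusted p of 0.0529, and its day 15 arrays did not overlap the untreated ones. On hCG day 15 against day 12 limma called 0 members and 0% of all probe sets, while 19 members were lower and 0 higher at an unadjusted p under 0.05, or 32.2%, against 5.13% of all probe sets. In that step all 6 smooth muscle and pericyte markers were below 0 (median -0.39), with 0 called and 2 at the unadjusted level, and their part in it was not tested. On hCG day 18 against day 15 it again called 0 members and 0% of all probe sets, with 2 higher and 5 lower at that level, where 3688 of all probe sets passed it, COL9A2 having the smallest adjusted p of 0.355.

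On day 18 against untreated, further probe sets gave the same direction as the one used for VCAN, COL5A2, LAMB1, FN1 and THY1. The sign was opposite for FBN2, COL1A1 and 1 of LAMA3. The 4 other probe sets of VCAN changed by between -1.59 and -1.28 and 3 passed. The 3 others of COL5A2 all passed, with changes of between -1.02 and -0.45, and so did the other of LAMB1, at -0.83. The second probe sets of FN1 and THY1 were also below 0, at -1.27 and -0.63, and did not pass. Those of FBN2 and COL1A1 were at 0.04 and 0.05, with mean signals of 18.8 and 5.38 units that lie near or under the added constant of 16. On day 18 against day 12 they were at 0.15 for FBN2 and 0.03 for COL1A1. On day 12 against untreated, the second FN1 probe set was at -0.64 and the one used at 0.22, and neither passed. When the probe sets of a gene were averaged, the calls on day 18 against day 12 had adjusted p-values of 0.0638 for THY1, 0.15 for FN1 and 0.0912 for FBN2. For LAMA3, 2 of 3 further probe sets were below 0 on day 18 against untreated, the other was at 0.07, and 0 passed. The one at 0.07 and another at -0.19 had mean signals of 4.485 and 5.18 units, under the added constant. The remaining one, at -0.52, had a mean signal of 37.7 units. THBS4, COL21A1, COL9A2, COL6A3 and FBLN5 have a single probe set here.

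**Figure D4:**
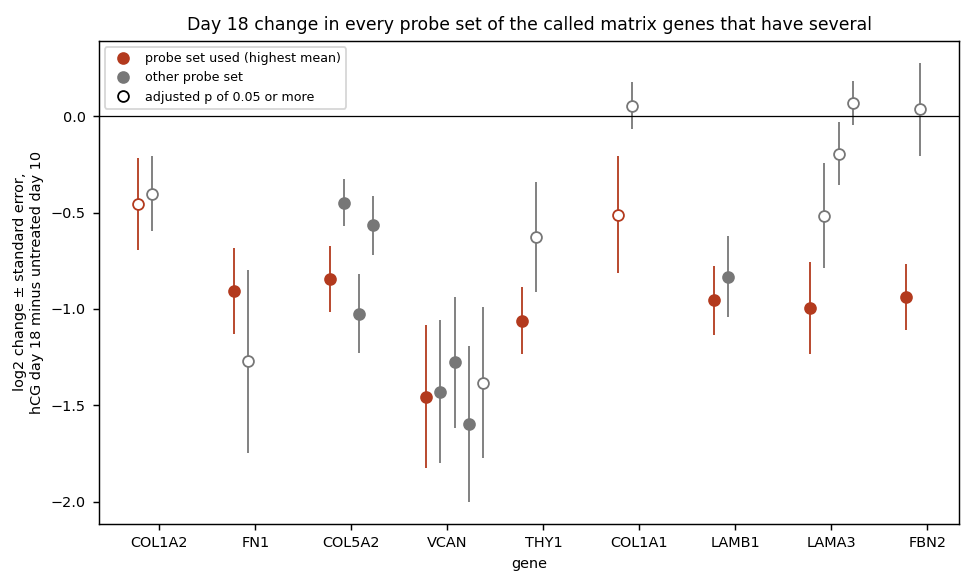
Log2 change with its standard error on hCG day 18 against untreated day 10 (vertical axis) for every probe set of the called genes that have several (horizontal axis), in red for the probe set used and grey for the others, filled where the adjusted p was under 0.05. All 5 VCAN and all 4 COL5A2 probe sets lie below 0, while the other probe sets of COL1A1 and FBN2 lie near 0.

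Of 24 measured genes of collagen processing and cross-linking, limma called 2 in the F test, or 8.33%. The F test called 4.52% of all probe sets and 9.35% of the brighter genes. On day 18 against untreated, limma called 0 of the 24 (4 at an unadjusted p under 0.05). On day 18 against day 12 it called 2 as lower, where 0.782% of all probe sets and 2.21% of the brighter genes were called lower. ADAMTS2, the protease that removes the amino-terminal propeptide of fibrillar procollagens, averaged 143 ± 27.4 units on day 18 and 284 ± 76.4 on day 12, a fall of 0.90 ± 0.19 (adjusted p = 0.0206). On day 12 it was higher than on hCG day 10, where it averaged 144 ± 31.1, by 0.89 ± 0.19 (adjusted p = 0.0363), a comparison with the same day 12 arrays. LOXL1, a cross-linking oxidase of elastic fibres, averaged 313 ± 36.2 units on day 18 and 485 ± 98.8 on day 12, a fall of 0.60 ± 0.15 (adjusted p = 0.047). The ADAMTS2 calls ended in 5 and 8 of the 20 fits without 1 array, without hCG day 12 replicate 1 or 2 or hCG day 18 replicate 3 or 4 in both, without hCG day 18 replicate 1 in the day 18 comparison, and without hCG day 10 replicate 1, 2 or 3 or hCG day 12 replicate 4 in the other. The LOXL1 call held only without untreated replicate 1 or 3 or hCG day 10 replicate 4. These 3 calls had adjusted p-values of up to 0.0791, 0.118 and 0.139. Without the 3 arrays that stood apart, the adjusted p was 0.0703 and 0.141 for ADAMTS2 and 0.135 for LOXL1. In the F test ADAMTS2 had an adjusted p of 0.0161, which was 0.0723 without hCG day 12 replicate 1 and 0.107 without the 3 arrays, and LOXL1 had 0.0434, which held only without untreated replicate 1 or 3, hCG day 12 replicate 3 or hCG day 15 replicate 3, reached 0.083 in the other 16 fits and was 0.17 without the 3 arrays.

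Of 18 further matrix glycoproteins and proteoglycans, limma called 0 in every pairwise comparison. In the F test it called 1, the proteoglycan biglycan (BGN), or 5.56%, against 4.52% of all probe sets and 9.35% of the brighter genes. At an unadjusted p under 0.05, 5 passed on day 18 against untreated and 0 to 4 in the other pairs. The BGN call (adjusted p = 0.039) held only without untreated replicate 4, hCG day 10 replicate 4, hCG day 12 replicate 1, 2 or 3, hCG day 15 replicate 3 or hCG day 18 replicate 2, reached 0.0826 in the other 13 fits, and was 0.104 without the 3 arrays.

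The TGF beta axis, a growth factor pathway that controls matrix synthesis, had 5 of 13 measured genes called in the F test, or 38.5%, against 4.52% of all probe sets. LTBP1, which anchors latent TGF beta in the matrix, averaged 1241 ± 167 units in untreated arrays, 668 ± 236 on hCG day 10 and 1298 ± 371 on day 12, and in later arrays 1811 ± 794 on day 15 and 2122 ± 518 on day 18 (SD, n = 4 each). Its F call (adjusted p = 0.0076) held in all 20 fits without 1 array. SMAD3, a signal transducer of the pathway, was also lowest on hCG day 10, at 603 ± 160 units, and highest on day 18, at 1077 ± 89.3 (adjusted p = 0.0223), and the call ended without hCG day 10 replicate 1, 2 or 3, with up to 0.0813. CCN2, a matrix-associated target of the pathway, averaged 2184 ± 948 units in untreated arrays, 962 ± 90.1 on hCG day 10 and 2239 ± 589 on day 12, and in later arrays 1499 ± 446 on day 15 and 1197 ± 305 on day 18 (adjusted p = 0.0463). The CCN2 call held only without untreated replicate 2 or 4, hCG day 12 replicate 4, hCG day 15 replicate 3 or hCG day 18 replicate 1, reached 0.102 in the other 15 fits and was 0.0931 without the 3 arrays that stood apart. TGFBR3 and SMAD7, described next, were the other two, at 0.0277 and 0.0366. The TGFBR3 call ended without untreated replicate 1, 2 or 4 or hCG day 18 replicate 1, 2 or 4 (up to 0.0773), and the SMAD7 call held only without hCG day 10 replicate 3, hCG day 12 replicate 1 or 3, any hCG day 15 array or hCG day 18 replicate 2 or 4, reached 0.0819 in the other 11 fits and was 0.0831 without the 3 arrays.

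On hCG day 12 against hCG day 10, 12 of the 13 changes were above 0 (median 0.45, against -0.01 over all probe sets), with 0 called by limma and 6 higher and 0 lower at an unadjusted p under 0.05. Against untreated, 9 of the 13 were below 0 on hCG day 10 (median -0.16), with 0 called and 5 lower and 0 higher at that level. By day 12, 7 were above 0 and 6 below against untreated (median 0.02), with 0 called and 3 higher and 0 lower at that level. On day 18 against untreated 2 of the 13 passed. TGFBR3, the co-receptor betaglycan, averaged 5005 ± 403 units on day 18 and 2240 ± 415 in untreated arrays, a rise of 1.17 ± 0.25 (adjusted p = 0.00996) that held in all 20 fits without 1 array. SMAD7, an inhibitor of the pathway's signalling, averaged 125 ± 32.9 units on day 18 and 214 ± 12.5 in untreated arrays, a fall of 0.73 ± 0.18 (adjusted p = 0.024). This call ended without untreated replicate 1, 3 or 4 or hCG day 18 replicate 1 or 3, with an adjusted p of up to 0.0882, and was 0.0557 after median-centring and 0.0584 without the 3 arrays that stood apart.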

How the data were processed

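The authors deposited 1 intensity on a linear scale for each probe set of each array, computed in Affymetrix GCOS per the submitters' processing notes. Its version and scaling target are not given in the sources used here. Tested on the table, each array has a 2% trimmed mean near 200. Scanner images and detection calls were not used here, and the number of arrays limits the precision.

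Of 52865 probe sets, 158 control probe sets were left out, and 52707 were analysed as log2(intensity + 16) with no further scaling. Symbols came from the platform annotation; no genome positions were used. One limma model (version 3.58.1, R version 4.3.3) took all 20 arrays with 1 mean for each group, and gave two-sided moderated tests and Benjamini-Hochberg adjustment over all 52707 probe sets within each comparison, at a threshold of 0.05. The comparisons were the F test over the groups, 8 pairs of groups, and hCG day 12 against the mean of the other hCG groups. Errors are standard errors for log2 changes and standard deviations for signals. The procedure was tested on simulated data. Python 3.11.15 and matplotlib 3.10.9 made the figures.

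The members, gene lists, comparisons and alternatives were chosen with earlier results of these data known. Genes named are those listed in the rule, all that passed, the brightest of each family, the 4 smallest p-values of comparisons with fewer than 4 calls and the 10 largest F values. COL3A1, THBS1 and THBS2 fall outside this rule and were chosen after their values were seen. Alternatives were 2 other normalizations, pseudocounts of 1 and 64, the upper 50% of probe sets, array weights, a trend in the variance, the replicate number as a block, the compared arrays alone, the mean over probe sets, 1 probe set per gene, a change of at least 2-fold, leaving out the 3 arrays that stand apart, and leaving out each array.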

Additional observations from a re-analysis of the deposited data

Results flagged for a closer look

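In 3 of 125 sets of 4 arrays (25 named genes in 5 groups) a single array lay far from the other 3 on the log2 scale, where chance flags about 1 in 20 groups. COL21A1 had 1311 units in untreated replicate 3, against 780 to 826 in the other untreated arrays, and the day 18 call against untreated ended without it. FBN2 had 44.5 units in hCG day 18 replicate 2, against 52.8 to 54.1 in the other day 18 arrays, and its day 18 calls held without it. THBS4 had 1491 units in untreated replicate 4, against 2885 to 3258 in the other untreated arrays, and its day 18 call against untreated held without it. Their causes were not tested.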

How the results depend on the processing

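Of the 32 calls of named matrix genes, 15 held in each of the 20 fits without 1 array. Of these, 12 also held in every other alternative apart from the change of at least 2-fold, which was not applied in this count. Some of the 12 are smaller than 2-fold, such as COL5A2 on day 18 against untreated, with a log2 change of -0.85. In any alternative, 0 of the 32 changed sign. Outside the fits without 1 array, the F call of LAMA3 ended in 6 of 11 alternatives and the day 18 calls against day 12 of THBS4 and COL1A2 in 6 and 3 of 12. The number of genes called by the F test was 6 with a pseudocount of 1, 7 without the 3 arrays that stood apart, and 7 to 13 without 1 array. On hCG day 18 against untreated 5 genes were called at a change of at least 2-fold, and 7 to 11 without 1 array. On day 18 against day 12 the counts were 5 at 2-fold or more, 4 with the arrays of those groups alone, and 3 to 9 without 1 array, the lowest being without hCG day 18 replicate 3 (3) and hCG day 12 replicate 2 or 3 (5 each). On day 12 against untreated 1 gene was called after median-centring (FBLN5), and 0 to 1 without 1 array. On day 15 against untreated the counts were 3 with quantile normalization, 1 with a pseudocount of 64, 3 with the upper 50% of probe sets, 1 with a variance trend, 2 with array weights, 2 with the mean over probe sets and 3 with 1 probe set per gene, and 0 to 5 without 1 array, 5 without hCG day 15 replicate 3. Those genes were all lower on day 15. The other pairwise and peak counts were 0 in each fit without 1 array. With a replicate block the day 15 count was 1 (THBS4, adjusted p = 0.0243), and the block ended 2 calls and added 2 among the named genes. The labels do not say whether the replicate numbers pair the arrays. Of 40 same-numbered pairs of arrays, 14 deviated together with a correlation over 0.1, and the range was -0.28 to 0.36. The mean correlation was 0.04 for the same number and -0.01 for different numbers, and these values cannot decide on a pairing. Genes with their highest mean on hCG day 12 numbered 23 to 37 over all alternatives. The 37, or 62.7%, came after median-centring, where 26.5% of all 14132 genes had theirs on that day. Without that centring it was 15.67% of all genes, and without hCG day 12 replicate 1 it was 17.45%, where 23 matrix genes, or 39.0%, had theirs on that day. Signals near the added constant limit what dim probe sets such as COL9A2, COL9A3, TNC and FBN2 can show.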
